A study of Danio rerio with 2 samples.

Results

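Regulators of the neural crest and of pigment cells were followed in gnl2 mutant zebrafish embryos. Gnl2 is a GTP-binding protein of the nucleolus that takes part in the assembly of large ribosomal subunits. The genes are sox9a, sox9b, sox10, foxd3, tfap2a, mitfa, dct and crestin, 8 in all. A gene probe was taken as a member if its name in the array annotation, or the symbol in parentheses in its description, was one of these names. The rule found 14 of 21495 gene probes, for 7 of the 8 genes, and found no probe for crestin. The mutant embryos carried the bw41c allele on both chromosomes, their parents being heterozygotes. The controls were wild-type TL embryos. Whole embryos of both groups were collected at 22 hours post-fertilization, with no treatment named in the labels, and each RNA extract came from 40 pooled embryos. Each of 2 arrays compared mutant RNA directly with wild-type RNA, the mutant being labelled with Cy5 on array 1 and, after a dye swap, with Cy3 on array 2. Whether these TL embryos were siblings of the mutants is not stated, so genotype and strain background cannot be told apart.

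The neural crest is a migratory cell population that arises at the border of the neural plate and gives rise to pigment cells, peripheral neurons and glia, and much of the facial skeleton. Tfap2a and Foxd3 act early in its specification, and the SoxE factors Sox9a, Sox9b and Sox10 act in its formation and in the choice of fates. In the zebrafish pigment lineage Sox10 is required for expression of mitfa, whose product directs melanophore development and activates melanin synthesis genes such as dct. Inherited defects of ribosome production affect crest-derived tissues in several vertebrates. Several of the genes are also expressed outside the crest. At this stage sox9a and sox9b are also expressed in the nervous system and the ear, tfap2a in the surface ectoderm, and dct in the retinal pigment epithelium. In RNA of whole embryos, fewer cells of a type and less RNA per cell cannot be told apart.

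Depending on array and channel, 92.7% to 96.4% of gene probes were well above background, and 19284 probes were tested with n = 2 arrays. Precision is limited by this number of arrays. The series text calls them biological replicates, but both titles end in the same number and nothing else says that they held separate embryo pools. The p-values rest only on the spread between these 2 arrays, that of the probe moderated by that of all probes, and this spread may be technical. Across the tested probes, which are not independent replicates, the turned ratios of the arrays correlated at r = -0.15. The probe for gnl2 itself had a mean log2 ratio of -1.63 ± 0.91 (SD, n = 2), 32.3% of the wild-type signal, with an adjusted p of 1.00 in limma. It was the lowest mean of all tested probes, but where the probe lies relative to the lesion is unknown here, so this level is no check of genotype.

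No member gene differed between mutants and wild types at an adjusted p under 0.05 in limma. Of the 14 member probes, 13 passed the filter on dim probes, for all 7 genes found, and 0 of these 13 were called, beside 0 of all 19284 probes (0%). Each of the 13 was well above background in all 4 channels, so that the transcripts were detected in both genotypes. All member ratios were below 2-fold, the largest on any array being 0.40 in log2 size. Beside other probes they were not all small. In size of the mean, sox9a exceeded 95.2% of all tested probes, the foxd3 probes 88.1% and 82.8%, and sox10 14.8%. The mean log2 ratios of mutant over wild type lay between -0.33 for sox9a and 0.20 for the brighter foxd3 probe, and their median was -0.03, against a median of 0.002 over all tested probes. None of the 13 probes was at least 2-fold different on both arrays, a size that 0.124% of all probes reached upwards and 0.00519% downwards. At an unadjusted p under 0.05 there was 1 member probe, that of sox9a, against 3.28% of all probes in either direction and 1.24% in the lower direction in limma. An exact test on 2 arrays alone cannot give a p below 0.5.

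The directions were shared between the arrays for 3 of the genes. Ratios were below 0 on both arrays for 5 of the 13 probes, where the share among all probes was 20%. These were the sox9a probe, the 3 mitfa probes and 1 tfap2a probe. Both foxd3 probes were above 0 on both arrays, where the share among all probes was 21.4%. The other 6 probes were split between the arrays, as were 58.6% of all probes. Of the 13 probes, 5 were split with array 1 above 0, as were 31.1% of all probes. Probes of 1 gene share their target and their RNA, so they are not replicates of the comparison.

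**Figure D1:**
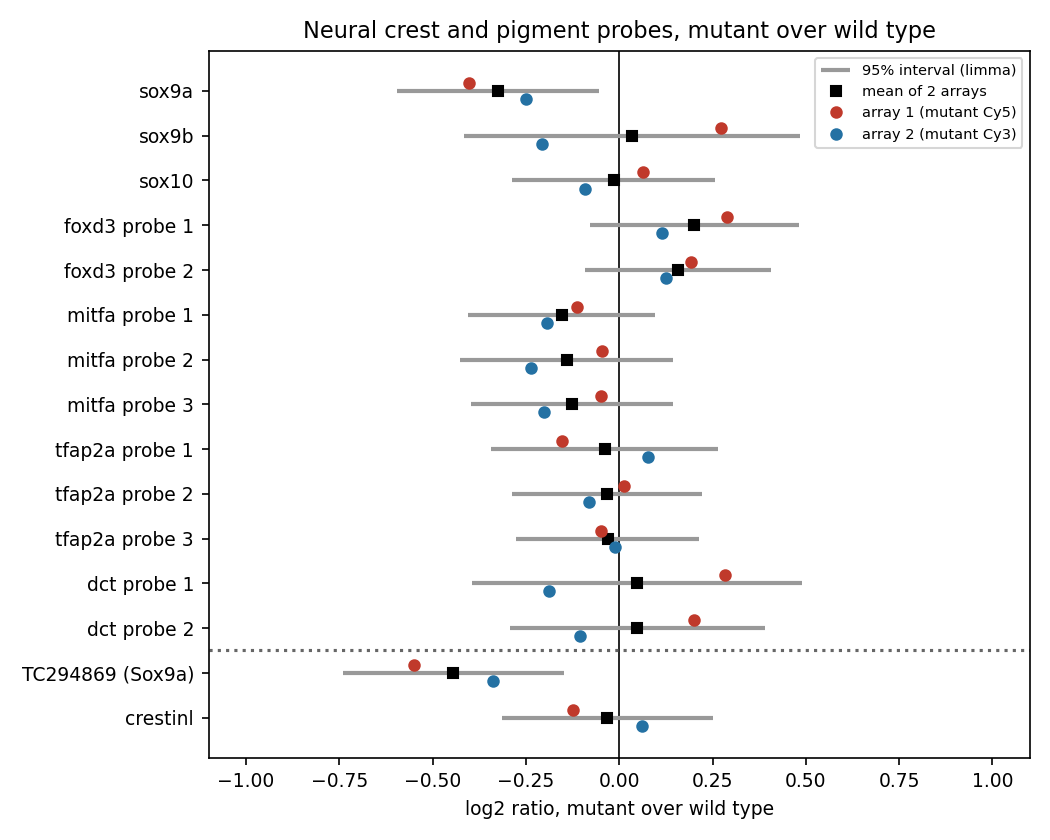
Log2 ratio of mutant over wild type (horizontal axis) for the 13 tested member probes and, under the dotted line, 2 probes outside the rule. Red and blue circles are arrays 1 and 2, black squares their means and grey bars the 95% intervals of the limma fit. Among the members the interval of sox9a alone lies to one side of 0, from -0.60 to -0.05.

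Among the SoxE factors, sox9a was the one with lower signal in the mutants on both arrays. Sox9a (NM_131643) is needed in zebrafish for cartilage formation in the pharyngeal arches. Signals are in arbitrary units after background correction, with an added offset of 50, and scaling. The normalised sox9a signal was 178 in mutants and 235 in wild types on array 1, and 242 and 288 on array 2. The mutant signal was thus the lower of the pair on each array. The log2 ratios were -0.40 and -0.25, with a mean of -0.33 ± 0.11 (SD, n = 2). This corresponds to 79.8% of the wild-type signal, with a 95% interval from 66.1% to 96.3%. The difference did not pass the adjustment over all probes (unadjusted p = 0.0304, adjusted p = 1.00 in limma). Of all tested probes, 1.79% had a lower mean ratio. Without the offset the sox9a mean was further from 0, at -0.42.

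A further probe, annotated to the transcript cluster TC294869, is described as the Sox9a HMG box factor, and the member probe for sox9a is annotated to the same cluster. It falls outside the rule because its symbol is not given in the required form, and it was singled out after its values were seen. Its normalised signal was 343 in mutants and 503 in wild types on array 1, and 396 and 501 on array 2. The mutant signal was again the lower on both arrays. The mean log2 ratio was -0.44 ± 0.15, or 73.5% of wild type (unadjusted p = 0.0156, adjusted p = 1.00 in limma). Since it shares its target and RNA with the member probe and was singled out with its values known, it adds no independent measurement of sox9a.

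Sox9b (NM_131644), the duplicate of Sox9a in teleosts, had no shared direction. Its signal was 275 in mutants and 227 in wild types on array 1, but 344 and 397 on array 2. The mutant signal was the higher on array 1 and the lower on array 2, which on both arrays means that the Cy5 channel was the brighter. The mean was 0.03 ± 0.34 (SD, n = 2; adjusted p = 1.00 in limma), with an interval from 74.9% to 139.9% of wild type, while the mean along red over green was 0.24. The ratio of sox9a minus that of sox9b was -0.68 on array 1 and -0.04 on array 2, a mean of -0.36 ± 0.45, and a difference between the duplicates was not tested.

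Sox10 (NM_131875), which marks migrating crest and directs the glial and pigment fates, differed little. Its signals were 2308 in mutants and 2209 in wild types on array 1, and 2137 and 2278 on array 2. Mutant and wild-type values overlapped, with ratios on either side of 0. The mean log2 ratio was -0.01 ± 0.11 (SD, n = 2), or 99.0% of wild type with a 95% interval from 82.0% to 119.6% (adjusted p = 1.00 in limma). With median centring, an alternative to loess, its mean turned to 0.03. The ratio of sox9a minus that of sox10 was -0.47 and -0.16 on the arrays.

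**Figure D2:**
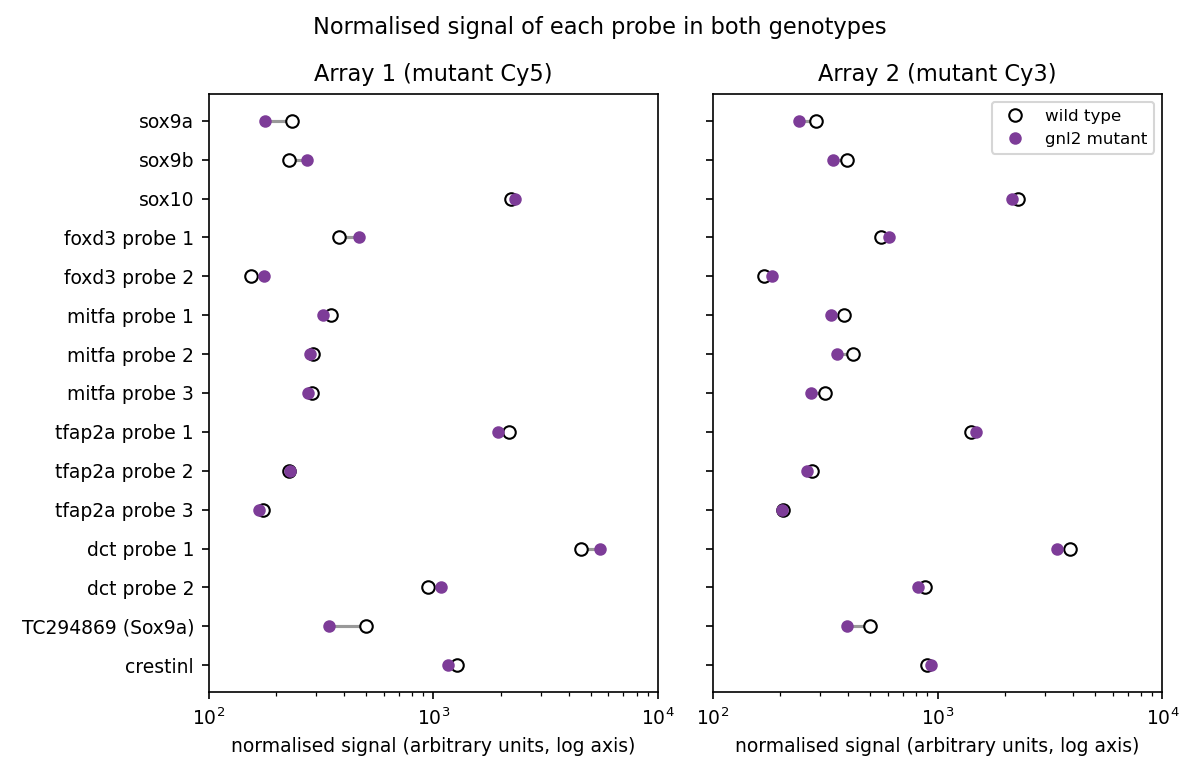
Normalised signal (arbitrary units, log axis) of each tested probe in wild types (open circles) and gnl2 mutants (filled circles), with array 1 on the left and array 2 on the right. The filled circle lies left of the open one on both arrays for sox9a (178 against 235, and 242 against 288), TC294869, the 3 mitfa probes and 1 tfap2a probe.

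Neither early specifier differed between the genotypes by the test, with foxd3 ratios above 0 and tfap2a means just below 0. Foxd3, a forkhead repressor that maintains crest progenitors and their multipotency, was measured by 2 probes annotated to NM_131290. The brighter probe had signals of 465 in mutants and 380 in wild types on array 1, and 608 and 562 on array 2. The dimmer one had 176 and 154 on array 1, and 183 and 168 on array 2. The mutant signal was the higher in each of these 4 pairs, which are 2 probes on the same 2 arrays and not 4 replicates. The mean log2 ratios were 0.20 ± 0.12 and 0.16 ± 0.05 (SD, n = 2), or 115.0% and 111.6% of wild type. Their 95% intervals included 0, with upper ends at 139.7% and 132.6% of wild type, and neither probe was called (unadjusted p = 0.111 and 0.145, adjusted p = 1.00 for each in limma).

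Tfap2a, an AP-2 factor needed for the induction of crest and the development of its pigment and cartilage derivatives, was measured by 4 probes, of which 3 were tested. The brightest, annotated to NM_176859, had signals of 1945 in mutants and 2164 in wild types on array 1, and 1481 and 1404 on array 2. The next, annotated like the third to ENSDART00000013003, had 230 and 227 on array 1, and 263 and 278 on array 2, and the third had 168 and 174, and 204 and 205. None of the probes showed a difference that was large beside the spread between arrays. Their means were close to each other, at -0.04 ± 0.16, -0.03 ± 0.07 and -0.03 ± 0.03 (SD, n = 2; adjusted p = 1.00 for each in limma). Their 95% intervals together spanned 78.9% to 120.2% of wild type. The mean of the brightest probe turned to 0.006 with median centring. The fourth probe was well above background in 2 of 4 channels and was not tested, and its log2 ratios were 0.02 and -0.08.

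In the pigment lineage mitfa had ratios below 0 at each of its 3 probes on both arrays, by a small amount. Mitfa is the basic helix-loop-helix factor without which zebrafish form no melanophores of the body. The brightest of its 3 probes, all annotated to NM_130923, had signals of 324 in mutants and 351 in wild types on array 1, and 335 and 382 on array 2. The others had 282 and 292, and 278 and 287, on array 1, and 358 and 422, and 274 and 315, on array 2. The mutant signal was the lower in all 6 pairs, which are 3 probes on the same 2 arrays and not 6 replicates. Mean log2 ratios were -0.15 ± 0.06, -0.14 ± 0.13 and -0.13 ± 0.11 (SD, n = 2), or 89.9%, 90.7% and 91.7% of wild type. The means of the 3 probes differed by less than any of their SDs. Their intervals ran from 74.4% to 110.6% of wild type, and none was called (unadjusted p = 0.156, 0.229 and 0.253, adjusted p = 1.00 for each in limma).

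Dct, dopachrome tautomerase, acts in melanin synthesis and is among the first pigment enzymes to be expressed. The brighter of its 2 probes, both annotated to NM_131555, had signals of 5491 in mutants and 4516 in wild types on array 1, and 3403 and 3874 on array 2. The other had 1084 and 944 on array 1, and 815 and 876 on array 2. As for sox9b, the Cy5 channel was the brighter on both arrays, and the genotypes overlapped. The means were 0.05 ± 0.33 and 0.05 ± 0.21 (SD, n = 2; adjusted p = 1.00 for each in limma), whereas along red over green they were 0.23 and 0.15. The 95% intervals reached from 76.0% to 140.5% of wild type for the brighter probe and from 81.6% to 131.0% for the other.

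Crestin RNA, a marker of nearly all premigratory and migrating crest in zebrafish, had no probe under the rule. A probe named crestinl in the annotation was singled out afterwards, and nothing in the annotation ties it to crestin itself. Its signals were 1162 in mutants and 1266 in wild types on array 1, and 935 and 897 on array 2. The genotypes overlapped, at a mean of -0.03 ± 0.13, or 97.8% of wild type with an interval from 80.4% to 119.1% (adjusted p = 1.00 in limma). Its mean turned to 0.01 with median centring.

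**Figure D3:**
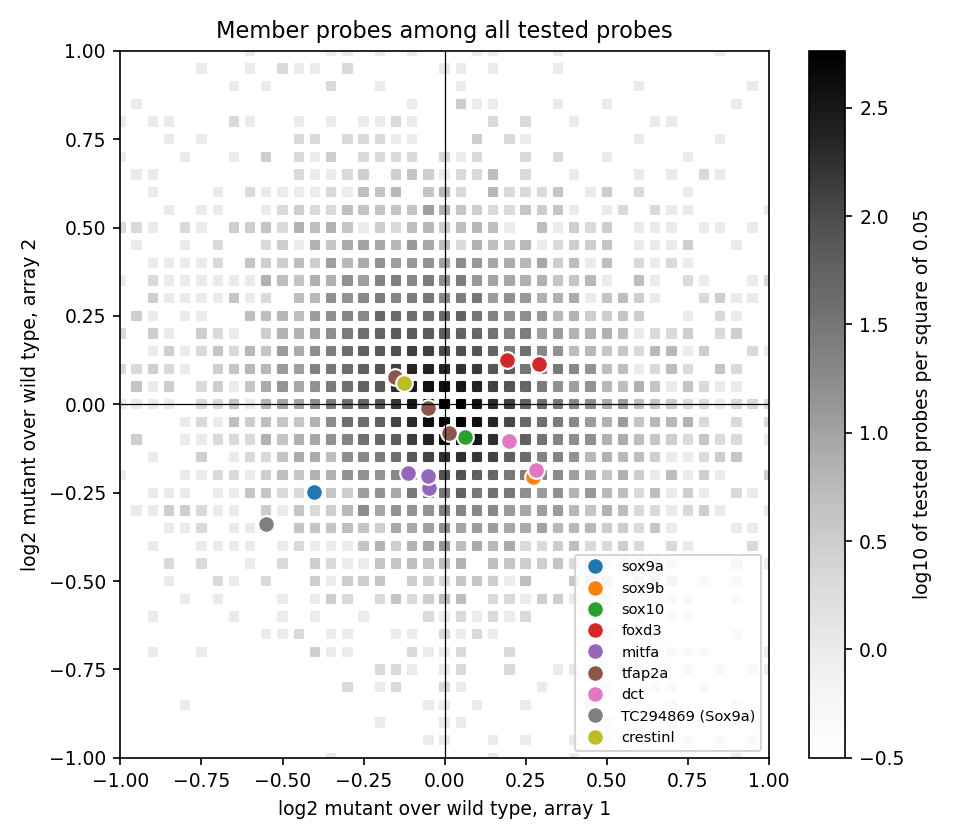
Log2 ratio of mutant over wild type on array 1 (horizontal) against array 2 (vertical). Grey squares count all tested probes with both ratios within 1 of 0, and coloured circles are the member probes, TC294869 and crestinl. The sox9a and mitfa probes lie at the lower left, foxd3 at the upper right, and sox9b and dct at the lower right, where array 1 is above 0 and array 2 below.

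Taking the members together, the 95% intervals of the 13 probes lay between 66.1% and 140.5% of the wild-type signal, under the processing used here. Each interval holds for its own probe and rests on the spread of that probe moderated by that of all probes, with 3.49 degrees of freedom in total. The interval of the TC294869 probe, outside the rule, ran from 59.9% to 90.2%. Under other processing the intervals would differ. Without the normexp offset the mean was -0.42 for sox9a, 0.23 for the dimmer foxd3 probe and -0.19 to -0.16 for the mitfa probes. No member signal was saturated. Raw signals of the tested member probes ran from 163 to 11930, against local backgrounds of 48 to 78. In the gene order of the assembly GRCz12tu, 0 of the members lie within 10 genes of gnl2 on either side.

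Other genes used in the crest and in its derivatives were taken from 5 lists. The ratios of these lists too are those of whole embryos and not of crest cells alone. Of the 101 listed names 56 were tested. In limma 0 were called and 0 had an unadjusted p under 0.05, beside 0% and 3.28% of all probes. Of these 56 genes 28.6% were higher and 23.2% lower on both arrays, beside 21.4% and 20% of all probes. Their median log2 ratio was 0.002, and the range of their means was wider than that of the members, with erbb2 the highest at 0.32. Among 21 specification genes 7 were higher on both arrays and 4 lower, with a median of 0.01, and of -0.05 and 0.07 on arrays 1 and 2. The zinc finger gene prdm1a had 0.24 ± 0.01 at its brightest probe, while its probes ranged down to -0.04, and the crest repressor gene snai1a had 0.17 ± 0.02. The homeobox gene msx2b had -0.15 ± 0.10 and zic2a -0.09 ± 0.02. Among 7 melanophore genes 3 were higher and 2 lower on both arrays, with a median of 0.006 that turned to -0.02 with median centring. The tyrosinase gene tyr had 0.13 ± 0.10 and the melanosome trafficking gene rab32a 0.11 ± 0.02, while the receptor gene kita, needed for melanophore migration and survival, had -0.18 ± 0.10 and the melanosome protein gene gpr143 -0.06 ± 0.05.

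The 2 tested genes of the xanthophore and iridophore list were ednrba, an endothelin receptor gene, split between the arrays at -0.03 ± 0.14, and mpv17 at 0.12 ± 0.03. In the cranial ectomesenchyme list 2 of 16 genes were higher and 6 lower on both arrays, beside 21.4% and 20% of all probes. The list had a median of -0.04. The homeobox gene dlx1a had -0.30 ± 0.22 and the growth factor receptor gene pdgfra -0.23 ± 0.03, with -0.02 at its other probe. In the other direction dlx5a had 0.12 ± 0.14 and prrx1b, with dim signals of 91 to 121, had 0.07 ± 0.07. Among 10 genes of crest-derived neurons and glia 3 were higher and 1 lower on both arrays, with a median of 0.01, and of 0.06 and -0.01 on arrays 1 and 2. The receptor gene erbb2, singled out after its values were seen, had log2 ratios of 0.62 on array 1 and 0.006 on array 2. The receptor gene ret had 0.07 ± 0.07, the proneural gene neurog1 0.06 ± 0.05 and gfra1a -0.08 ± 0.03.

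**Figure D4:**
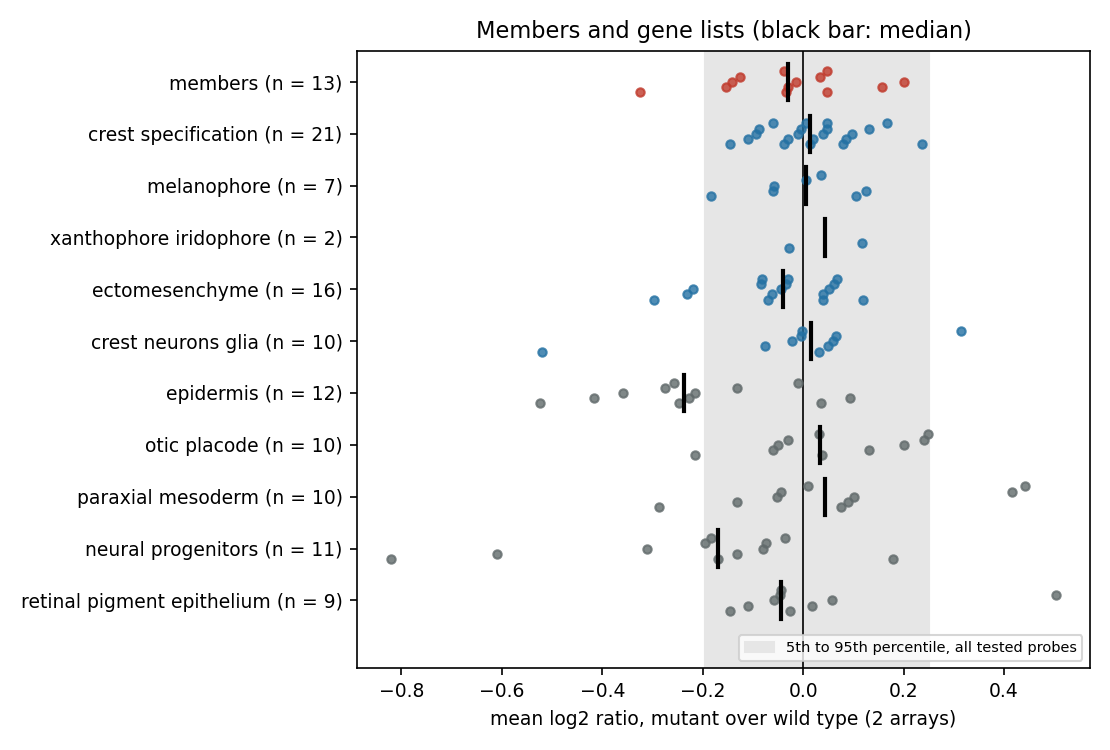
Mean log2 ratio of mutant over wild type over 2 arrays (horizontal axis) for the member probes (red), genes of 5 crest lists (blue) and of 5 lists for other sites of expression (grey), 1 point per probe or gene, with medians as black bars. The grey band holds all tested probes between the 5th and 95th percentile, -0.20 to 0.25, and of the members sox9a lies outside it. The medians of epidermis (-0.24) and neural progenitors (-0.17) lie left of the others, and that of epidermis becomes -0.13 without saturated probes.

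Genes of tissues that share expression of the members were taken from 5 further lists. Their ratios are those of whole embryos and not of a single tissue. Of 11 tested genes of neural tube progenitors, where sox9a and sox9b are also expressed, 9 were lower on both arrays, beside 20% of all probes. Their median was -0.17, and -0.24 and -0.06 on arrays 1 and 2. Their summed signal was 19630 in mutants and 27160 in wild types on array 1, and 27560 and 33100 on array 2. Such a sum is weighted by the brightest probes. The sums of other lists went either way, that of the somite and presomitic list being higher in mutants on both arrays. Among the neural progenitor genes fabp7a had -0.82 ± 0.04 and sox2 -0.61 ± 0.35, with unadjusted p in limma of 0.00118 and 0.0232 and adjusted p of 1.00. These values move in the direction of the sox9a ratio, whereas the sox9b mean was 0.03, and their part in either was not tested. The count of 9 used the brightest probe of each gene and includes ratios near 0, such as -0.004 for pax6b on array 2. This list, like the others, was chosen with earlier results of these data known, so no conclusion is drawn from the count. Over all tested probes the means ran from -0.25 to 0.58 for gfap and from -0.29 to 0.07 for pax6b. Those of fabp7a and pax6a were all below 0. Ear genes, at a further site of sox9a, sox9b and sox10, had a median of 0.03 over 10 genes. On both arrays 5 were higher and 1 lower, beside 21.4% and 20% of all probes. The ear genes included gbx2 at 0.24 ± 0.02, oc90, with dim signals of 79 to 129, at 0.13 ± 0.11, and otx1 at -0.21 ± 0.17.

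Somite and presomitic genes, which share sites with sox9a and foxd3, had a median of 0.04 over 10 genes, with -0.06 and 0.12 on arrays 1 and 2, and 3 were higher and 4 lower on both arrays. Here myod1 had 0.44 ± 0.05 at its brighter probe and 0.09 at the other, myog 0.41 ± 0.17, tbx16 -0.29 ± 0.28 and mespaa -0.05 ± 0.01, with 0.05 at its other probe. Epidermal genes, which share the surface ectoderm with tfap2a, had a median of -0.24 over 12 genes, with 4 lower and 0 higher on both arrays and list medians of -0.36 and -0.10 on arrays 1 and 2. For 3 genes, krt4, krt5 and krt8, the probe used was saturated in at least 1 channel, and without saturated probes the median was -0.13. In this list icn had -0.52 ± 0.03, and krt8, saturated in 1 of 4 channels, had a measured ratio of -0.36 ± 0.11. The tfap2a means of -0.04 to -0.03 were closer to 0, and the part of the epidermal values in them was not tested. The list for the retinal pigment epithelium had a median of -0.04 over 9 genes, with 1 higher and 4 lower on both arrays. It held rlbp1b at 0.50 ± 0.36, otx2a at -0.15 ± 0.16 and mitfb, the paralog of mitfa, at -0.06 ± 0.03. The gene rlbp1a of this list was not tested, and in whole embryos the rlbp1b value cannot be assigned to this tissue. Beside the counts of shared direction, 21.4% of all probes were higher and 20% lower on both arrays. In each of these lists 0 genes were called by limma. At an unadjusted p under 0.05 in limma, 2 of 11 neural progenitor genes and 3 of 12 epidermal genes were lower, krt8 among them. At the same threshold 2 of 10 somite and presomitic genes were higher, as was rlbp1b, 1 of 9 genes of the retinal pigment epithelium list. None of the ear genes reached it, and 3.28% of all probes did in either direction.

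**Figure D5:**
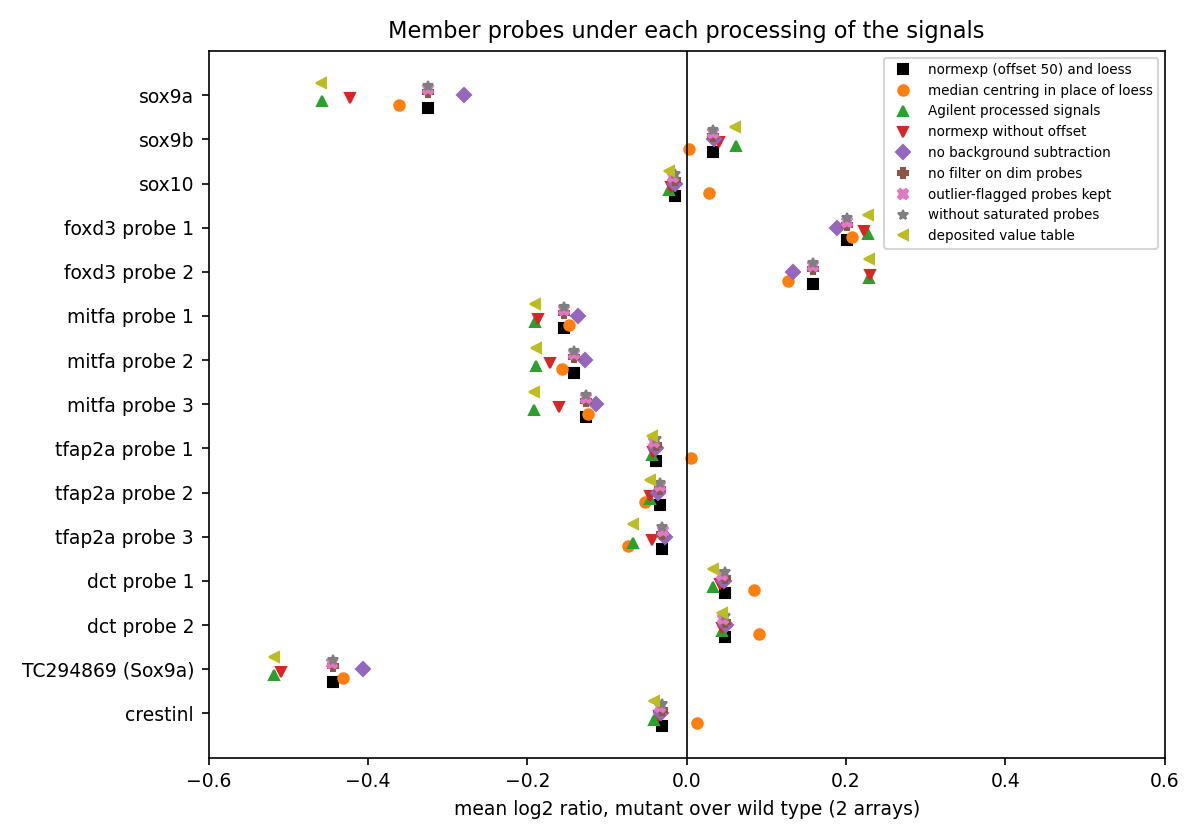
Mean log2 ratio of mutant over wild type over 2 arrays (horizontal axis) for each member probe, TC294869 and crestinl, under the processing used here (black squares) and 8 alternatives (coloured symbols). The sox9a probe lies between -0.46 and -0.28 under all of them, the foxd3 probes stay above 0 and the mitfa probes below, while sox10 and the brightest tfap2a probe cross 0 with median centring. The 8 alternatives are not independent checks. Those on dim, outlier-flagged or saturated probes hardly move a member ratio. Agilent's processed signals and the deposited values give nearly the same ratios, -0.4581 and -0.4584 for sox9a.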

How the data were processed

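Per the file headers, the deposited intensity values are mean spot signals and median local backgrounds from Agilent Feature Extraction A.7.5.1. The deposited log10 ratio is red over green processed signal, after spatial detrending and LOWESS dye normalization (smoothing 0.25), per the file headers. The deposited p-value column, per the file headers, comes from the scanner software's own error model and was used for no call. Signals were corrected with normexp (offset 50) and normalized within arrays by loess (span 0.3) in limma 3.58.1 under R 4.3.3. Array 2 was turned, so that ratios are mutant over wild type. Channel signals were scaled between arrays by Aquantile. Outlier flags removed 749 gene probes. A probe was kept if well above background in 1 genotype on both arrays, which removed 1462. Ratios were tested with lmFit and eBayes, 2-sided, with Benjamini-Hochberg adjustment over 19284 probes. A trial of this procedure on simulated data drew independent errors without a dye effect, so it does not bear on dye effects in these arrays. Names followed GRCz12tu tables by accession for 7323 probes, by symbol for 598 and by synonym for 2352, and 11222 kept the file's name. Lists used the brightest probe of a gene. From each list up to 2 genes per direction were named, by the smaller of both arrays' ratios, where these shared a sign. The members and lists were chosen with earlier results of these data known. Array, slide and dye orientation cannot be told apart. The result of 1 gene of the crest neuron and glia list is not reported by name here.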

Additional observations from a re-analysis of the deposited data

How the results depend on the processing

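In the 8 alternatives that keep both arrays, 0 member probes reached an adjusted p under 0.05 in limma, and their lowest adjusted p was 1.00. Median centring instead of loess brought the count over all probes from 0 to 38 and left 0 member probes at an unadjusted p under 0.05, against 1. The same alternative turned sox10 to 0.027, the brightest tfap2a probe to 0.0056 and crestinl to 0.013. Other alternatives changed no direction among the members, and sox9a ranged from -0.46 to -0.28, with an unadjusted p between 0.0280 and 0.190. Some of them could hardly move a member ratio, since they changed mainly which probes were kept. The deposited values nearly repeat the ratios of Agilent's processed signals. The number of probes at least 2-fold lower on both arrays, 1 here, became 2 with median centring, 3 without the normexp offset, and 6 with Agilent's processed signals or with the deposited value table. Leaving out each array in turn only returns the ratio of the other array, given above, with no test, and is no separate check. The probes of sox9a, foxd3 and mitfa and the dimmest tested tfap2a probe, which had 1 sign on both arrays, therefore keep it. The other values ran from -0.21 to 0.27 for sox9b, -0.092 to 0.063 for sox10, -0.15 to 0.078 and -0.080 to 0.014 for tfap2a, -0.19 to 0.28 and -0.10 to 0.20 for dct, and -0.12 to 0.061 for crestinl. The cause of the changes between processing settings, and of the opposite signs between arrays, was not tested.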

Other observations

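The gene erbb2 was singled out after its values were seen. This receptor tyrosine kinase, which acts with erbb3 receptors in crest-derived glia, had normalised signals of 1865 in mutants and 1210 in wild types on array 1 but 901 and 897 on array 2, or log2 ratios of 0.62 and 0.006.

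In the epidermal list, the keratin genes krt4 and krt5 had ratios of opposite sign, at -1.19 and 0.68 for krt4 and -1.19 and 0.36 for krt5, each with 3 saturated channels. Their means therefore have no interpretable size.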
